A study of Mus musculus with 6 samples.

Results

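The 10 genes described here encode proteins that hold endothelial cells together or set how much passes through the vessel wall: Cdh5, Cldn5, Esam, Pecam1, Plvap, Emcn, F11r, Jam2, Jam3 and Cav1. They were chosen by gene symbol, all 10 were found among the 19131 genes of each file, and all 10 were among the 15035 genes that passed the filter on low counts. Whole skin was taken from mouse embryos at embryonic day 17.5 and sequenced, from 3 Tie1 knockout samples and 3 Tie1 controls, all on the C57BL/6N background. The sample names read Tie1ECDKO and Tie1ECDWT, and the labels explain neither these letters nor in which cells or by which driver Tie1 was lost. Nor do they say if each library is a separate embryo or litter, or from where on the body the skin came, so p-values measure only the spread between these samples, which may be technical. The study's title asks how endothelial TIE1 limits sprouting and shapes vein assembly together with TIE2.

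An endothelial layer is sealed by adherens junctions, built on VE-cadherin, and by tight junctions, built on claudins and the JAM family of immunoglobulin-like adhesion proteins. Molecules can also cross through the cell by caveolae, small membrane pits coated by caveolin, and through openings closed by diaphragms of the protein PLVAP. Signalling through TIE2 and its partner TIE1 is known to stabilise these contacts, whereas VEGF loosens them.

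Plvap and Emcn stood lower in knockout skin and Pecam1 stood slightly higher. Jam2 was lower without overlap but not past the test, and the remaining genes, Cav1 among them, overlapped between the groups. Levels are given as CPM, the reads of a gene per 1000000 reads of a library after TMM scaling. Plvap was 33.4% lower and Emcn 30.1% lower, with every knockout library below every control library, and Pecam1 was 20.5% higher, with every knockout library above every control library. By the quasi-likelihood test of edgeR, adjusted over all genes tested, 0 of the 10 passed an adjusted p of 0.05. Plvap came nearest, at an adjusted p of 0.0528. Over all genes 24 were called, which is 0.160%. With an unadjusted p under 0.05 there were 3 of 10 (Plvap and Emcn lower, Pecam1 higher), against 7.42% of all genes (3.35% lower, 4.08% higher). DESeq2 called 2 of the 10 (Plvap and Emcn, 1.40% over all genes), limma-voom 0 of 10 (0.0998%). The groups did not overlap for 4 of the 10, namely Pecam1 (higher, 7.03% of all genes) and Plvap, Emcn and Jam2 (lower, 6.78%). The median log2 fold change of the 10 genes was 0.028, beside 0.0038 over all genes tested, since 6 stood above 0 and 4 below. In whole skin, fewer endothelial cells and less RNA per endothelial cell cannot be told apart.

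**Figure D1:**
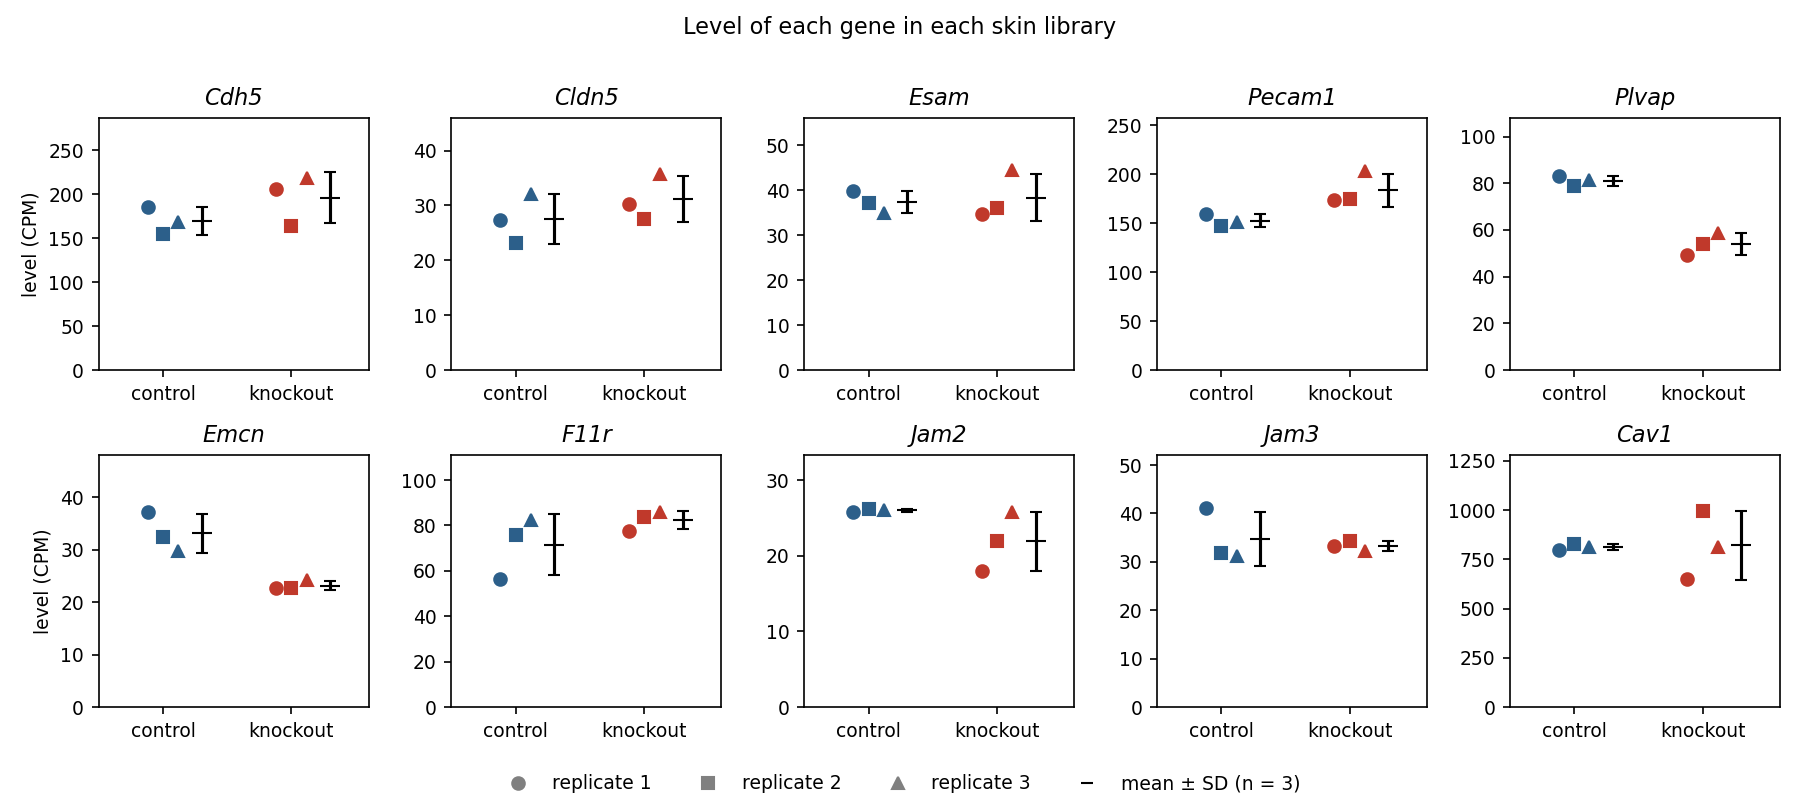
Level of each of the 10 genes in each library, in CPM with the axis from 0; blue points are control and red points knockout libraries, the point shape gives the replicate number, and the black mark is the mean ± SD of 3 libraries. Plvap and Emcn lie lower and Pecam1 higher in all 3 knockout libraries, while most other panels overlap.

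The libraries held 19826856 to 20591164 estimated reads, and each of the 10 genes had 350 to 20109 reads per library. Tie1 stood at 2.26 to 4.33 CPM in the knockout and at 50.7 to 60.0 CPM in the control libraries, as the labels have it. Markers of skin were abundant: the keratinocyte genes Krt10 and Krt5 and the collagen genes Col1a1 and Col3a1 all exceeded 2535 CPM in each library. All 18 genes of an endothelial reference list that shares no member with the 10 (such as Erg, Egfl7, Eng and Cd93) were detected and tested. Their summed level was 663 to 738 CPM in knockout and 657 to 688 CPM in control skin, so the groups overlapped. Single members went both ways, with 5 of 18 higher and 4 lower without overlap between the groups. Over all genes tested, 7.03% were higher and 6.78% lower without overlap. Among other cell types, summed adipocyte markers were lower without overlap (251 to 347 against 363 to 447 CPM, 6 of 8 tested). That sum rests mainly on Fabp4 and Lpl. Of the 6 genes 5 lay below 0 and 1 above, and Plin1 passed (0.446 to 0.979 against 4.66 to 8.93 CPM, log2 fold change −3.22, edgeR adjusted p = 0.0353). Summed mural cell markers were higher without overlap (724 to 753 against 617 to 717 CPM, 10 of 10 tested). The mural genes went both ways, beside the same 7.03% and 6.78% of all genes. There were 4 higher without overlap, of which Pdgfrb passed (edgeR adjusted p = 0.0330), and the contractile genes Myh11, Cnn1 and Tagln were lower without overlap. Dermal fibroblast markers overlapped (27560 to 30210 against 26380 to 31340 CPM, 6 of 6 tested). Knockout 2 stood apart in single genes, with 95.6 CPM of the platelet chemokine gene Ppbp and 23.0 CPM of the epithelial claudin gene Cldn3. The other 5 libraries held 0.889 to 2.40 and 0.294 to 1.39 CPM of these, which were named after their values were seen. The other platelet markers tested did not set knockout 2 apart. Pf4 (53.6 CPM) and Gp1ba (2.03 CPM) were lowest there among the knockout libraries, and Gp1bb and Itga2b lay within the range of the other libraries.

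Plvap (chromosome 8, 71497753 to 71511806, GRCm38.p6) encodes the protein of the diaphragms that span fenestrae and caveolar necks, and is a marker of capillaries and venules that let solutes through. Its level was 49.4, 53.9 and 58.6 CPM in knockout libraries and 83.0, 78.7 and 81.4 CPM in control libraries. Every knockout library thus lay well under the lowest control library. The means were 54.0 ± 4.63 and 81.0 ± 2.19 CPM (SD, n = 3 each), a log2 fold change of −0.59 (SE 0.077, approximate 95% interval −0.77 to −0.41, edgeR adjusted p = 0.0528). In the order of unadjusted p over all genes tested it was the 28th. The gene passed with no filter on low counts (adjusted p = 0.0322, where 0.205% of genes were called), with DESeq2 (2.98e-06), and without both knockout 1 and control 1 (0.0216, where 0.923% were called). In the fits that left out 1 library the log2 fold change stayed between −0.65 and −0.53 and none passed. With the endothelial reference as a covariate it was −0.48 (SE 0.12), at an adjusted p of 0.814, the highest of all alternatives run. The reference median was itself lower in every knockout library than in any control library, so that fit can hardly tell it from genotype. Over all genes, 1 was called in it.

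Emcn (chromosome 3, 137341062 to 137431069) encodes endomucin, a sialomucin on the luminal surface of capillaries and veins that is largely absent from arteries. The knockout libraries held 22.7, 22.6 and 24.1 CPM and the control libraries 37.1, 32.5 and 29.8 CPM. The knockout values lay close together and all below the lowest control value. Emcn had a log2 fold change of −0.52 (SE 0.097, approximate 95% interval −0.74 to −0.29, edgeR adjusted p = 0.153), which DESeq2 called (adjusted p = 0.00818, within a range over all alternatives of 0.00818 to 0.954). With the endothelial reference as a covariate its log2 fold change was −0.29. Lymphatic endothelial markers, another source of endothelial RNA in skin, overlapped in their summed level (228 to 297 CPM in knockout and 219 to 305 CPM in control skin, 7 of 7 tested), but their members went both ways. Prox1 (8.39 to 10.3 against 12.3 to 22.5 CPM), Reln and Ccl21a were lower without overlap and Lyve1, the most abundant, was higher (104 to 162 against 64.4 to 93.8 CPM), with none past the edgeR test. Their part in the level of Emcn was not tested.

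Promoter sequence from RefSeq (GRCm38.p6, 250 bases before to 50 after a start site, so that the start site is base 251) matched 4 of the 10 genes: Emcn, Cldn5, F11r and Cav1. Of these, 3 are printed 5′ to 3′ on the gene's strand to set the gene that stood lower beside a tight junction gene of endothelium and one that epithelium shares. Capitals mark GGAA or its reverse complement TTCC, the core bound by ETS factors, a family known to drive endothelial genes.
Emcn, chr3:137340828-137341127, plus strand: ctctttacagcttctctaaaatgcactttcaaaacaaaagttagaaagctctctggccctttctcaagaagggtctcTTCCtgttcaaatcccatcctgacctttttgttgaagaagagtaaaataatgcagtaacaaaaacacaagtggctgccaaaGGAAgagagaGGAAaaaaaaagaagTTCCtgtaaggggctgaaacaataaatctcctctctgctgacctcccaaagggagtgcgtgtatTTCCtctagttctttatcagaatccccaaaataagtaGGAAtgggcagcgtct
Cldn5, chr16:18776597-18776896, plus strand: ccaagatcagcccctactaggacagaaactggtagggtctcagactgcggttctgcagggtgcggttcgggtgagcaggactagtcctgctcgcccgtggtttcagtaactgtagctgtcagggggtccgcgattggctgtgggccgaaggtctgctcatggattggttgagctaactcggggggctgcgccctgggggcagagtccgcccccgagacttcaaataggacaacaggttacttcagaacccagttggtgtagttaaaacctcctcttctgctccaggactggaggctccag
F11r, chr1:171437311-171437610, plus strand: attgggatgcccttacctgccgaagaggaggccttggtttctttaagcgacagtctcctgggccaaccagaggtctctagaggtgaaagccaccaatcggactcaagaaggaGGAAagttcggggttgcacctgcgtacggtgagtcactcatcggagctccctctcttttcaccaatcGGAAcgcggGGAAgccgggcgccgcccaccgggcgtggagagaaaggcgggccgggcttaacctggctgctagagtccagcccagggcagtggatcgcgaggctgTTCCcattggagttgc
The window of Emcn held 6 matches to this core, that of F11r 4 and that of Cldn5 0, beside a median of 3 over 32851 promoter windows, of which 96.0% held at least 1. The forkhead core TGTTT, searched on both strands, occurred 3 times in the window of Emcn and 0 times in those of Cldn5, F11r and Cav1, and in 50.5% of all windows. The CCAAT box, on both strands, occurred 4 times in the window of F11r, 2 times in that of Cldn5 and 0 times in that of Emcn (37.4% of all windows). The bases of the Emcn window were 41.0% G or C, those of Cldn5 58.3% and those of F11r 60.3%, with a median of 52.7% over all windows. These matches describe the letters of the windows and nothing about binding.

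**Figure D2:**
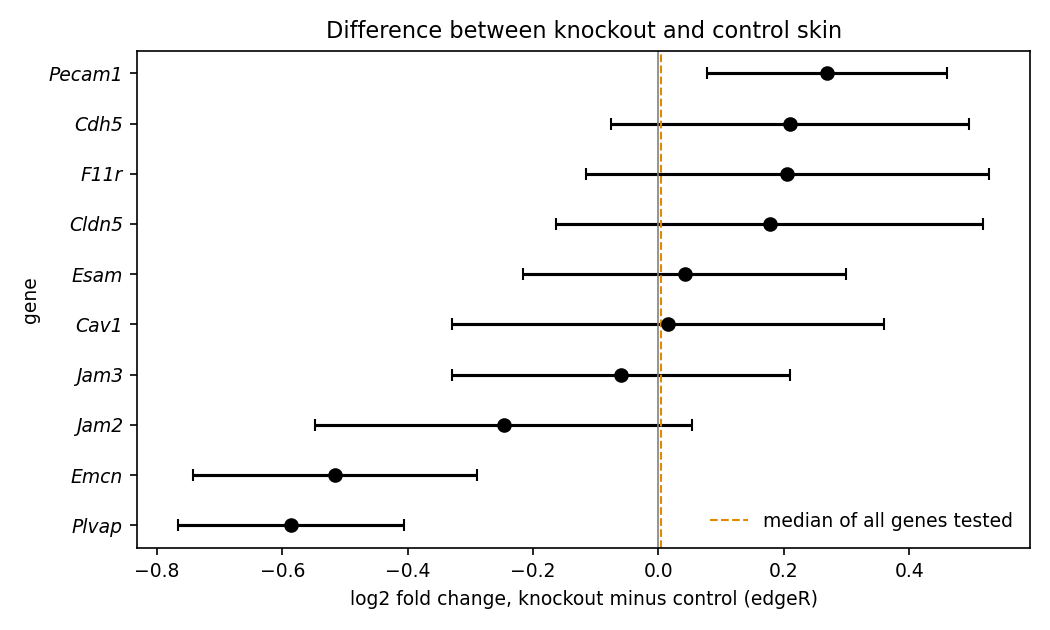
Log2 fold change of each gene, knockout minus control, from edgeR (points) with its approximate 95% interval (bars); the orange dashed line is the median of all genes tested and the grey line is 0. The intervals of Plvap, Emcn and Pecam1 lie to one side of 0, and those of the other 7 genes cross it.

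Pecam1 (chromosome 11, 106654213 to 106715281) encodes CD31, an adhesion protein at endothelial borders that platelets and some leukocytes also carry. It stood at 173, 175 and 203 CPM in knockout libraries and 160, 147 and 151 CPM in control libraries. The groups did not overlap, and knockout 3 was the highest of the 6. The log2 fold change was 0.27 (SE 0.082, approximate 95% interval 0.077 to 0.46), with an edgeR adjusted p of 0.447. With the endothelial reference as a covariate it was 0.43. The summed level of platelet and megakaryocyte markers was 69.4 to 160 CPM in knockout and 54.2 to 67.1 CPM in control skin over the 5 of 9 tested, the highest value being that of knockout 2. That sum rests mainly on Pf4 (53.6 to 65.6 against 43.8 to 52.6 CPM) and, in knockout 2, on Ppbp. Of the 5 log2 fold changes 4 lay above 0 and 1 below, with a median of 0.325. Gp1bb (0.64), Gp1ba (0.17) and Itga2b (−0.22) overlapped between the groups, and none of the 5 passed the edgeR test. Their part in the level of Pecam1 was not tested. Leukocyte markers overlapped (198 to 232 against 198 to 277 CPM, 6 of 6 tested).

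VE-cadherin, the adhesion molecule on which endothelial adherens junctions rest, is encoded by Cdh5 (chromosome 8, 104101613 to 104144504). Its level was 206, 163 and 219 CPM in knockout libraries and 186, 155 and 168 CPM in control libraries. Knockout 2 lay within the control range and the other knockout libraries above it. It differed by 0.21 on the log2 scale (SE 0.12, approximate 95% interval −0.076 to 0.50, edgeR adjusted p = 0.745), by 0.12 without knockout 3, 0.32 without knockout 2 and 0.47 with the endothelial reference as a covariate. Within each library, Plvap had 24.0, 33.0 and 26.8 reads per 100 Cdh5 reads in knockout skin and 44.7, 50.9 and 48.5 in control skin. Emcn had 11.1, 13.8 and 11.04 against 20.0, 21.0 and 17.7 reads per 100 Cdh5 reads. Both ratios were separated between the groups, as was that of Jam2 (8.78 to 13.4 against 13.9 to 16.9), while the ratios of the other 6 genes overlapped. Cdh5, the divisor, itself leaned higher in knockout skin, which on average moves every ratio downward there. The share of all genes separated by such a ratio was not computed. These ratios, which need no normalization between libraries, were added after the data were seen.

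Claudin-5, the main claudin of endothelial tight junctions and of the blood-brain barrier, is encoded by Cldn5 (chromosome 16, 18776847 to 18778262). The knockout libraries held 30.2, 27.5 and 35.8 CPM and the control libraries 27.4, 23.1 and 32.1 CPM. Both groups spread over a similar range, with the third replicate the highest in each. The log2 fold change of Cldn5 was 0.18 (SE 0.15, approximate 95% interval −0.16 to 0.52, edgeR adjusted p = 0.822). It was 0.058 without control 2, 0.066 without knockout 3 and 0.30 without control 3. Esam (chromosome 9, 37528089 to 37538319), an adhesion molecule of endothelial tight junctions and platelets, stood at 34.7, 35.9 and 44.5 CPM in knockout libraries and 39.7, 37.2 and 34.9 CPM in control libraries. Its groups overlapped over nearly their whole range apart from knockout 3, and the log2 fold change was 0.042 (SE 0.11, approximate 95% interval −0.22 to 0.30). Without knockout 3 it was −0.078 and without control 3 −0.011.

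The 3 JAM genes encode related adhesion proteins that endothelium, epithelium and other cells use at tight junctions and for leukocyte passage. JAM-B, found mostly on the endothelium of venules and lymphatics, is encoded by Jam2 (chromosome 16, 84774123 to 84826380). Its level was 18.0, 22.0 and 25.8 CPM in knockout libraries and 25.9, 26.1 and 26.1 CPM in control libraries. The control values were nearly equal and the knockout values spread below them, with knockout 3 just under the lowest control. The log2 fold change of −0.25 (SE 0.13, approximate 95% interval −0.55 to 0.053) had an edgeR adjusted p of 0.715 and became −0.12 without knockout 1 and −0.38 without knockout 3. JAM-C, which Schwann cells and smooth muscle also make, is encoded by Jam3 (chromosome 9, 27097384 to 27155421). It stood at 33.3, 34.4 and 32.1 CPM in knockout libraries and 41.0, 31.8 and 31.2 CPM in control libraries. Control 1 was the one library that stood apart, and the log2 fold change moved from −0.060 (SE 0.12) to 0.079 without it. Schwann cell markers overlapped in their summed level (99.4 to 110 CPM in knockout and 106 to 120 CPM in control skin, 5 of 5 tested). An antisense gene, Gm48796, overlaps exons of Jam3 on the other strand, and no source used here says if the counting was stranded, so their reads cannot be told apart.

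JAM-A, encoded by F11r (chromosome 1, 171437561 to 171464593), is also made by keratinocytes and platelets. The knockout libraries held 77.7, 83.7 and 85.7 CPM and the control libraries 56.4, 75.6 and 82.3 CPM. Control 1 was the lowest, and the remaining 5 libraries lay close together. The log2 fold change of 0.21 (SE 0.14, approximate 95% interval −0.12 to 0.53, edgeR adjusted p = 0.779) became 0.061 without control 1. Control 1 also had the lowest summed level of keratinocyte junction markers, 12200 CPM against 16880 to 22410 CPM in the other 5 libraries, and the part of this in F11r was not tested. F11r was the 1 of the 10 genes whose estimated counts were not whole (within 0.001), so its level is a model estimate rather than a whole number of reads.

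Caveolin-1, the coat protein of caveolae in endothelium, adipocytes, smooth muscle and fibroblasts, is encoded by Cav1 (chromosome 6, 17306335 to 17341328). Its level was 650, 997 and 815 CPM in knockout libraries and 797, 826 and 813 CPM in control libraries. The knockout values lay on both sides of the narrow control range. The log2 fold change was 0.015 (SE 0.15, approximate 95% interval −0.33 to 0.36, edgeR adjusted p = 0.989), −0.15 without knockout 2 and 0.16 without knockout 1, so the interval still holds changes of about the size seen for Pecam1 in either direction. Adipocyte markers, given above, were lower in the knockout, and their part in the level of Cav1 was not tested.

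Set against the endothelial reference list, Plvap and Emcn remained lower. For each library the median log2 CPM of the 18 reference genes was subtracted from that of the gene. Plvap stood 1.24 ± 0.088 above the reference in knockout and 1.67 ± 0.068 above it in control skin (log2, SD, n = 3 each), a difference of −0.43. Emcn stood at 0.023 ± 0.0028 and 0.37 ± 0.085, a difference of −0.35. Pecam1 differed by 0.42, Cdh5 by 0.36, F11r by 0.38 and Esam by 0.19, all higher in the knockout without overlap. In CPM, without the reference, the groups of Cdh5, F11r and Esam overlapped. The share of all genes separated on this measure was not computed. F11r is also made by keratinocytes, whose part in a library the endothelial reference does not measure. The difference of F11r was 0.16 without control 1, and that of Esam 0.11 without knockout 3. Each of these 6 had a two-sided exact permutation p of 0.1, the smallest that 3 against 3 libraries allows, so none could pass 0.05. Cldn5 (0.34), Cav1 (0.15), Jam3 (0.11) and Jam2 (−0.10) overlapped. The reference itself was lower in the knockout by this measure, with a median of 4.48 to 4.57 log2 CPM against 4.61 to 4.79, which moves every difference upward. It makes the differences of Plvap and Emcn smaller and those of Pecam1, Cdh5, F11r and Esam larger. With the mean of the reference genes in place of their median, Plvap differed by −0.52, Emcn by −0.44, Pecam1 by 0.33 and F11r by 0.29, all again at an exact permutation p of 0.1, while Cdh5 (0.27) and Esam (0.10) had an exact permutation p of 0.2 and 0.3.

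**Figure D3:**
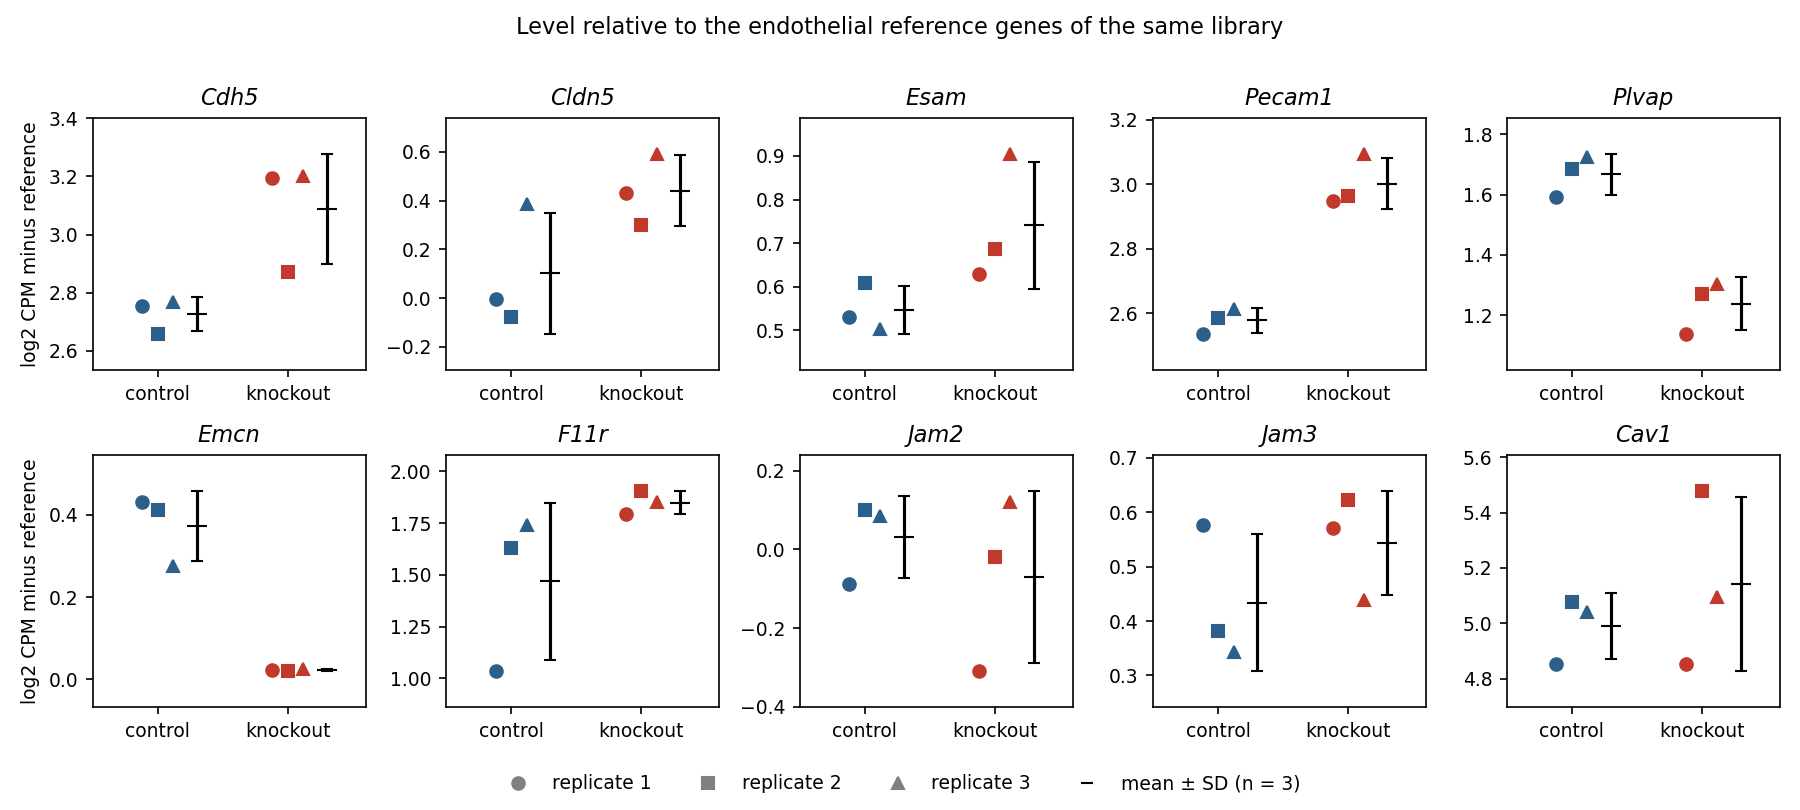
Log2 CPM of each gene minus the median log2 CPM of the 18 endothelial reference genes of the same library, with an axis for each gene that does not start at 0; blue points are control and red points knockout libraries, shapes give the replicate, and the black mark is the mean ± SD of 3 libraries. Plvap and Emcn lie lower and Pecam1, Cdh5, Esam and F11r higher in all 3 knockout libraries.

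Levels can be compared between the 10 genes only per length. Per kilobase of the longest RefSeq-matched transcript, the control mean was 296 CPM per kilobase for Cav1, the highest. It was followed by Pecam1 (44.3 ± 1.94), Cdh5 (42.4 ± 3.92) and Plvap (40.8 ± 1.10 CPM per kilobase, SD, n = 3 each). The control libraries of Cdh5 overlapped those of the other two, while Pecam1 lay above Plvap without overlap. F11r came next at 28.4 ± 5.34 and Esam, Cldn5 and Jam3 overlapped at 20.0, 19.5 and 17.9 CPM per kilobase. Emcn stood at 12.8 and Jam2 at 5.96 CPM per kilobase, neither overlapping its neighbours. The place of Emcn depends on the transcript: with the shorter one of 1357 in place of 2588 bases it would be 24.4. In the knockout the level of Plvap was 27.2 ± 2.33 CPM per kilobase, below F11r at 32.7 ± 1.65 in every knockout library.

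**Figure D4:**
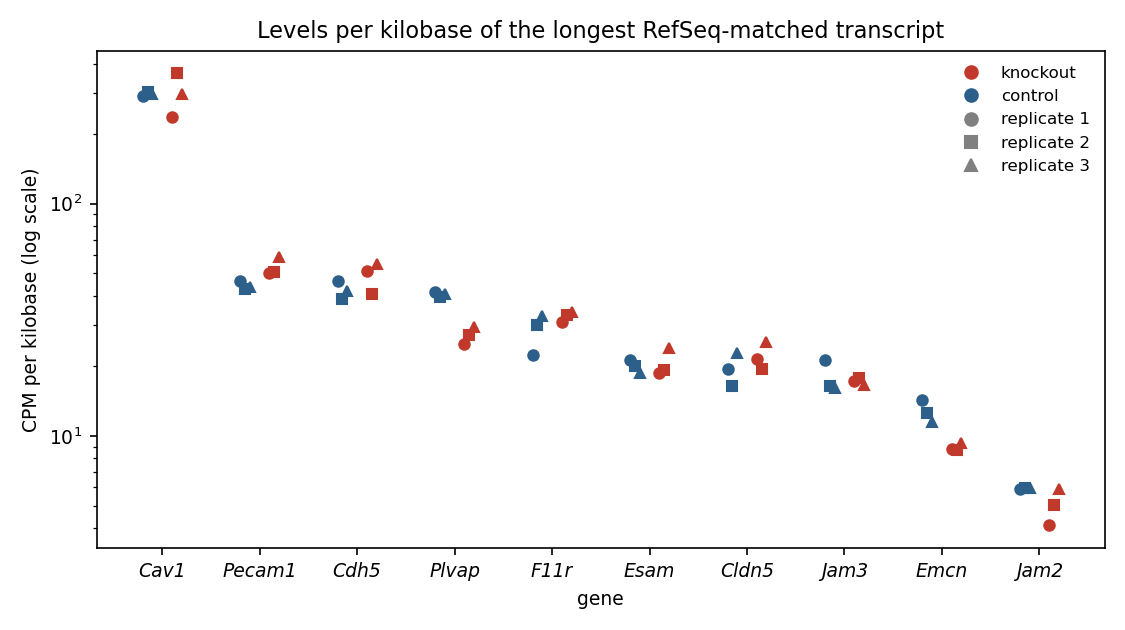
Level per kilobase of the longest RefSeq-matched transcript for each gene in each library (CPM per kilobase, log axis), ordered by the control mean; blue is control, red is knockout and shapes give the replicate. Plvap lies beside Pecam1 and Cdh5 in the control libraries and below F11r in the knockout libraries.

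The genes whose profile over the 6 libraries lay nearest were found by the root mean square distance between log2 CPM values, each centred on its own mean. The candidates were 12026 genes whose mean level reached 5 CPM, with predicted genes and Y-linked genes passed over. For Plvap the nearest were Ecm2, Mgst1 and Ccdc80 (distances 0.054, 0.057 and 0.067). For Emcn they were Fam129a, Kcnh2 and Abcd2 (0.033, 0.049 and 0.053) and for Pecam1 Myo10, Ttc9 and Ets1 (0.045, 0.045 and 0.046). Mgst1, a membrane glutathione transferase, stood at 35.4, 39.9 and 40.2 CPM in knockout libraries and 59.6, 52.7 and 54.1 CPM in control libraries. None of these 9 passed the edgeR test, with adjusted p from 0.0847 (Mgst1) to 0.663 (Ttc9).

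Other genes of the junction, caveola and permeability machinery were read from 6 lists holding 107 genes, of which 106 were in the files and 96 were tested. Of these, 3 passed the edgeR test: 2 rose and 1 fell, beside 0.0865% higher and 0.0732% lower over all genes. F2r, the thrombin receptor PAR1, whose activation opens endothelial junctions, rose from 59.8, 59.1 and 62.8 CPM in the control to 90.6, 95.7 and 90.6 CPM in the knockout libraries. The groups lay far apart against their spread (log2 fold change 0.61, SE 0.060, edgeR adjusted p = 0.0228). Angpt2, a context-dependent TIE2 ligand that can destabilise vessels, rose by 0.93 (SE 0.11, edgeR adjusted p = 0.0353). Cldn11, a claudin best known from myelin and the testis barrier, fell from 3.31, 3.71 and 5.23 CPM to 0.722, 0.446 and 0.687 CPM. Its highest knockout level was below its lowest control level (log2 fold change −2.71, SE 0.29, edgeR adjusted p = 0.0330). Each of these 3 calls was lost in every fit that left out 1 library, at adjusted p from 0.0508 to 0.272, with log2 fold changes of 0.58 to 0.63 for F2r, 0.83 to 1.03 for Angpt2 and −2.84 to −2.50 for Cldn11. With the endothelial reference as a covariate all 3 were lost as well (adjusted p = 0.430 to 0.683), at log2 fold changes of 0.57 for F2r, 0.91 for Angpt2 and −2.98 for Cldn11, and with limma-voom that of Cldn11 (adjusted p = 0.0564).

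**Figure D5:**
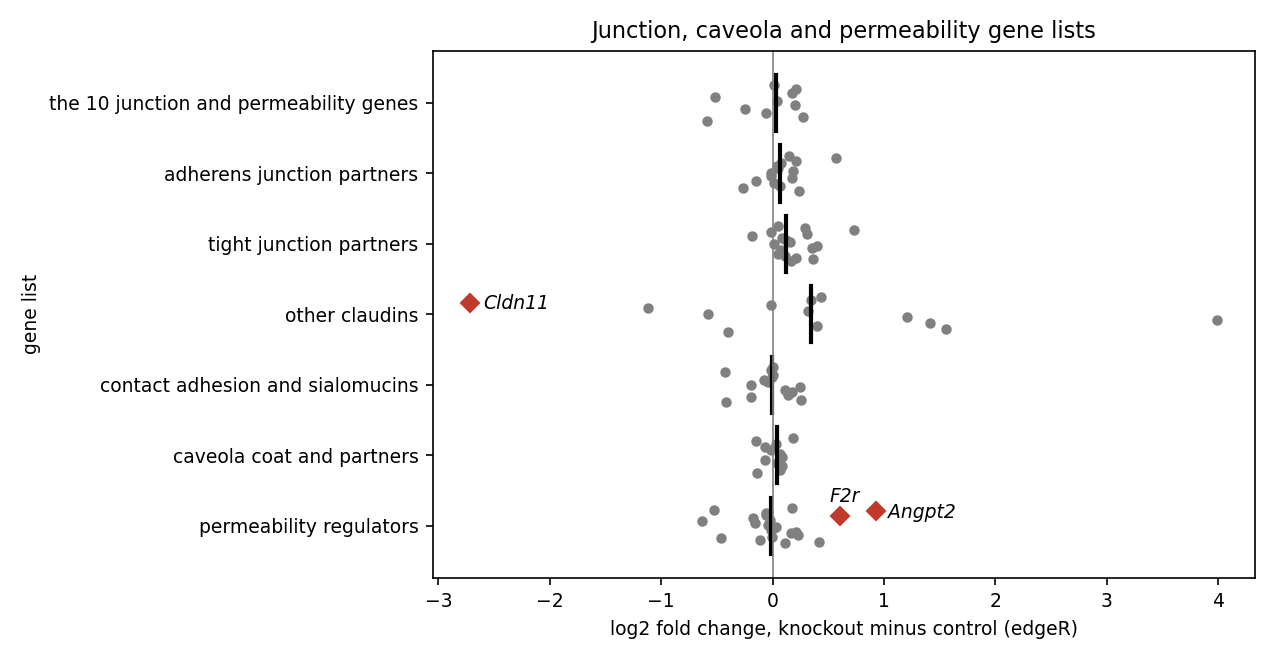
Log2 fold change, knockout minus control, of the 10 genes and of every tested gene of the 6 pathway lists; grey points did not pass, red diamonds passed an edgeR adjusted p of 0.05, and black bars are list medians. F2r, Angpt2 and Cldn11 are the 3 that passed, and the caveola list lies closest around 0.

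Of 15 adherens junction partners 0 passed, with a median log2 fold change of 0.064. At an unadjusted p under 0.05 there were 2 higher and 2 lower, beside 4.08% and 3.35% of all genes. Rasip1, an endothelial effector of the GTPase RAP1 that tightens junctions, stood at 28.9 to 31.8 CPM in knockout and 35.0 to 38.5 CPM in control skin. Vcl, encoding vinculin, stood at 178 to 189 against 141 to 165 CPM. Neither passed (edgeR adjusted p = 0.402 and 0.489), though in both the groups did not overlap. Of 19 tight junction partners 0 passed and 17 lay above 0, with a median of 0.12. At an unadjusted p under 0.05 there were 3 higher and 0 lower. The scaffold gene Tjp1, encoding ZO-1, stood at 150 to 169 CPM in knockout and 128 to 144 CPM in control skin, a log2 difference of 0.21 ± 0.074 (SE) that did not pass (adjusted p = 0.552 by edgeR). Keratinocytes also make this scaffold, and 13 of 15 keratinocyte junction markers lay above 0 (median 0.12), with summed levels that overlapped. Their part in the tight junction list was not tested.

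Among the 13 other claudins tested, 8 lay above 0 and 5 below, with a median of 0.34. At an edgeR unadjusted p under 0.05 there were 3 higher and 3 lower, beside 4.08% and 3.35% of all genes. Without overlap 4 were higher and 2 lower, beside 7.03% and 6.78% of all genes. Cldn4, an epithelial claudin, stood at 78.5, 67.2 and 26.1 CPM in knockout libraries and 20.1, 23.1 and 21.0 CPM in control libraries. Knockout 3 lay near the control range, and the gene did not pass (log2 fold change 1.42, SE 0.40, edgeR adjusted p = 0.445), though DESeq2 called it, as did edgeR without knockout 3. Cldn15 stood at 1.86 to 2.94 against 3.52 to 8.19 CPM (edgeR adjusted p = 0.520). Of 15 genes of contact adhesion and sialomucins 0 passed, and Mcam, an adhesion molecule of endothelium and mural cells, and Pvr, the poliovirus receptor, had log2 fold changes of 0.24 and 0.26 (edgeR adjusted p = 0.532 and 0.519). The sialomucin genes Cd34 and Podxl, related in kind to Emcn, overlapped between the groups. Both leaned the same way as Emcn, by −0.43 for Cd34 and −0.19 for Podxl on the log2 scale, and neither passed. Cd164, another sialomucin gene of the list, was at −0.015 and overlapped as well. Cd34 stood at 171 to 226 CPM in knockout and 211 to 333 CPM in control skin, and Podxl at 25.6 to 40.3 against 37.1 to 42.0 CPM. The highest level of Cd34 was that of control 1. Of the 15 genes in this list 7 lay above 0 and 8 below, with 3 higher and 0 lower at an edgeR unadjusted p under 0.05.

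In the caveola list 0 of 12 genes had an unadjusted p under 0.05 and all overlapped, with a median of 0.037. Over all genes 7.42% had such a p and 13.8% did not overlap, shares at which few of 12 genes would be found. Cavin1, needed to form the caveolar coat with caveolin-1, stood at 481 to 492 CPM in knockout and 438 to 517 CPM in control skin. Cav2, the partner of caveolin-1, stood at 47.4 to 68.2 against 43.7 to 55.4 CPM. Among 22 tested permeability regulators the median was −0.0096. At an edgeR unadjusted p under 0.05 there were 3 higher and 1 lower, and 3 were higher and 4 lower without overlap, beside the shares of all genes just given. Besides F2r and Angpt2, Nos3, the endothelial nitric oxide synthase, had 9.37 to 10.99 CPM in knockout and 14.4 to 16.8 CPM in control libraries (edgeR adjusted p = 0.135), and DESeq2 called it. Vegfa, the ligand first described as vascular permeability factor, stood at 116 to 153 against 87.5 to 115 CPM (edgeR adjusted p = 0.520).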

How the data were processed

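Each deposited file gives 1 value per gene and library, a not normalized estimated count (expected reads), per the file headers. HISAT2 2.0.4, RSEM 1.2.12, Bowtie2 2.2.5 and the genome GRCm38.p6 are listed in the submitters' processing notes, which assign them no step. The estimated counts were rounded, filtered with filterByExpr (minimum count 10) and scaled by TMM. Knockout was set against control with edgeR 4.0.16 in R 4.3.3 (quasi-likelihood F test, robust, no covariate), and p-values were adjusted by Benjamini-Hochberg over 15035 genes. DESeq2 1.42.0 and limma 3.58.1 (voom) were alternatives, with the others given in the closing section. The SE is the absolute log2 fold change divided by the square root of F, and the approximate 95% interval uses the fit's degrees of freedom. Levels are TMM-scaled CPM, and log2 CPM uses a prior count of 2. Transcript lengths and overlaps come from GENCODE M21 (GRCm38), coordinates and promoters from RefSeq (GRCm38.p6). The fit was tested on simulated data.

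The 10 genes, the gene lists, the tests and the alternatives were chosen with earlier results of these data known. Named genes are the 10, Tie1, called genes and the 2 with the smallest p of each pathway list, the smallest p and highest mean CPM of each cell type list, and the 3 nearest profiles of members with an unadjusted p under 0.05. In a departure from this rule, cell type lists are given mainly by summed level and not every such gene is named, and 1 gene of the pathway lists is not reported here. Other genes were named after their values were seen. Replicate numbers were not taken as pairs, since the labels state no pairs. Across genes, same-numbered libraries had r = 0.411, 0.0431 and 0.266, and differently numbered ones had r from −0.353 to 0.184. The same-numbered libraries of replicates 1 and 3 thus went together more than others, so a pairing is not excluded. The replicate number as a block called 52 genes in place of 24, with 0 of the 10 among them.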

Additional observations from a re-analysis of the deposited data

How the results depend on the processing

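The count of called genes moved with the setting: 24 as designed, 38 with no filter, 210 with DESeq2, 15 with limma-voom, 52 with the replicate number as a block (replicate block), 1 with the endothelial reference as a covariate, 139 without both knockout 1 and control 1, and 1 to 11 with 1 library left out. Of the 10 junction and permeability genes, 0 were called as designed and 0 in every fit without 1 library, 1 with no filter and without knockout 1 and control 1 (Plvap each time), and 2 with DESeq2. In the pathway lists 3 genes were called as designed, 5 with DESeq2, 0 with the covariate and 0 to 1 with 1 library left out (the 1 being Cldn4 without knockout 3). Under the replicate block the members' count stayed at 0 and that of the pathway lists stayed within 1.5 times. Plvap, Emcn, Pecam1, Cdh5, Cldn5 and Jam2 kept the sign of their log2 fold change in every setting run. For the other 4 genes, all near 0 or uncalled, it reversed. Cav1 was at −0.014 with upper quartile factors, −0.0077 with limma-voom, −0.0068 with the replicate block, −0.036 with the covariate and −0.15 without knockout 2, with 0.16 without knockout 1 at the other end. Esam was at −0.078 and −0.011 without knockout 3 and control 3 (up to 0.11 without knockout 1), and F11r at −0.099 with the covariate. Jam3 was at 0.21 with the covariate, 0.079 without control 1 (down to −0.14 without control 3) and 0.078 without both knockout 1 and control 1. Relative to the endothelial reference, the difference ranged with 1 library left out from −0.20 to 0.017 for Jam2 and from −0.015 to 0.30 for Cav1, and no other gene's sign changed. With the covariate the log2 fold change was 0.31 for Cldn5, 0.27 for Esam and −0.12 for Jam2. The causes of these shifts were not tested. In fits that leave out a library fewer samples are compared.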
